A study of Homo sapiens with 13 samples.

Results

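The comparison set 7 arrays of a series of 13 against each other: 3 of SW480 cells treated with Deferasirox and 4 of SW480 cells treated with DFO (deferoxamine). They were taken by their titles. SW480 is an established human colon cancer line, so all values come from a single cell line. Cells were kept for 6 h in Deferasirox at 50 mM, in DFO at 100 mM or in the solvent DMSO at 0.1% (n = 4), and the other 2 arrays came from cells in OICR623 at 10 mM, a compound known here by its code name. The doses are those of the labels and are high for cells in culture; the labels do not settle whether another unit was meant. The doses of Deferasirox and DFO were not matched, so each difference below is between these treatments as given and not between the compounds at an equal dose. The labels call the arrays biological replicates. RNA was hybridised to Affymetrix Human Gene 1.0 ST arrays, which read 1 signal per transcript cluster, and all values are on the log2 scale, where a difference of 1 is a doubling. The question addressed is where the responses to these iron chelators part.

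Iron chelators bind iron and withdraw it from cells. DFO is a bacterial siderophore of the hydroxamate type, a single molecule of which wraps an iron ion, and it enters cells slowly. Deferasirox is a synthetic, orally taken triazole carrying hydroxyphenyl groups, a pair of which molecules hold an iron ion, and it passes membranes easily. Enzymes that need iron include the prolyl hydroxylases that mark hypoxia-inducible factor (HIF) for destruction and ribonucleotide reductase, which makes the building blocks of DNA. Loss of iron is known to switch on HIF target genes such as VEGFA and NDRG1, to stabilise the transferrin receptor mRNA (TFRC) and to halt DNA replication, on which the mRNAs of the replication-dependent histones depend.

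The array medians fell into 3 levels with gaps over 0.05. DFO 1 lay in the high level (medians 7.17 to 7.19) together with DMSO 1. The middle level (6.64 to 6.69) held 8 arrays, among them DFO 2, DFO 3, Deferasirox 1 and Deferasirox 2, and the low level (6.52 to 6.55) held DFO 4, Deferasirox 3 and DMSO 4. The labels do not say what the levels are. Deferasirox and DFO therefore met in the middle level, 2 arrays against 2, and in the low level, 1 against 1, and DFO 1 had no Deferasirox array in its level. Differences were fitted with limma, with the level as a block. The mean of 14 measured intestinal epithelium markers lay at 7.92 to 8.12 on the Deferasirox arrays and 7.89 to 9.01 on the DFO arrays. The means of the fibroblast (5.20 to 5.24 and 5.21 to 5.79), endothelium (5.78 to 5.83 and 5.76 to 6.18) and leukocyte markers (5.06 to 5.27 and 5.04 to 5.85) were lower. On the DFO arrays the highest of each of these means was that of DFO 1, of the high level.

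Most genes differed little between the 2 treatments. Of 18404 genes, 8 (0.0435%) differed at a Benjamini-Hochberg adjusted p under 0.05 in limma, below named called genes; 5 (0.0272%) were higher under Deferasirox and 3 (0.0163%) lower. Against DMSO, limma called 1074 genes (5.84%) under Deferasirox, 521 higher (2.83%) and 553 lower (3.0%). It called 847 (4.60%) under DFO, 347 higher (1.89%) and 500 lower (2.72%). Both counts share the DMSO arrays. The median size of the difference between the treatments was 0.052, 95% of genes lay under 0.194, and 18 genes passed 0.5. For 18059 genes (98.1%) the whole 95% interval of the difference lay within 0.5 on either side of 0, a 1.41-fold change, a width chosen after the values were seen. The count depended on how the variance was estimated, on the genes tested, on the block and on single arrays. With an intensity trend and a robust prior in limma, and the same block, 116 genes (0.630%) were called, 78 higher (0.424%) and 38 lower (0.206%); among only the 9202 genes above the median signal 107 (1.16%) were, 69 higher and 38 lower. Calls of these alternatives are given beside genes named below, and not for every list. Without a block 0 genes were called, and 0 without Deferasirox 1, without Deferasirox 3 or without DFO 4, 2 without Deferasirox 2. At an unadjusted p under 0.05 there were 1847 genes (10.0%) with the block and 44 without it.

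**Figure D1:**
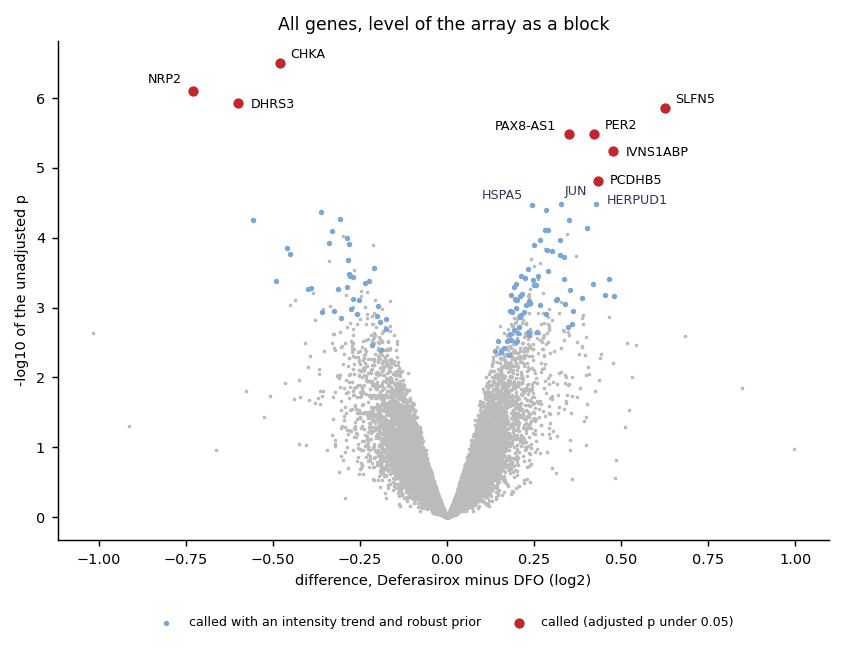
Difference between Deferasirox and DFO (horizontal axis, log2) against the -log10 of the unadjusted p (vertical axis) for all 18404 genes, 1 point per gene, with the array-median level as a block. The 8 called genes (red) lie between -0.73 and 0.63, and the genes called with an intensity trend and a robust prior (blue) include HSPA5, HERPUD1 and JUN.

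Lower under Deferasirox were a receptor, a retinoid enzyme and a choline kinase. NRP2, encoding neuropilin 2, a co-receptor for semaphorins and VEGF, read 8.10, 8.23 and 7.85 on Deferasirox arrays 1 to 3 and 9.02, 8.81, 8.81 and 8.71 on DFO arrays 1 to 4. Every Deferasirox array lay below every DFO array. The 2 groups were apart over all their arrays, in either direction, for 506 of 18404 genes. NRP2 differed by -0.73 (SE 0.07, adjusted p = 0.0064 in limma), a 1.66-fold lower signal; it fell under Deferasirox by 0.88 against DMSO (adjusted p = 4.9e-05), and its change under DFO was -0.14 (adjusted p = 0.30). A second transcript cluster of NRP2 differed by -0.34, in the same direction and smaller. The related co-receptor gene NRP1, chosen after its values were seen, differed by 0.11 (adjusted p = 0.54).

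DHRS3 encodes a short-chain dehydrogenase that turns retinaldehyde back into retinol. It read 8.18, 8.21 and 8.01 under Deferasirox and 8.89, 8.88, 8.77 and 8.64 under DFO, again without overlap. The difference was -0.60 (SE 0.06, adjusted p = 0.0064 in limma). Against DMSO the 2 changes had opposite signs. DHRS3 rose by 0.39 under DFO (SE 0.05, adjusted p = 0.0017), and its change under Deferasirox was -0.21 (SE 0.06, adjusted p = 0.082), which was not called.

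CHKA encodes choline kinase alpha, the first enzyme of phosphatidylcholine synthesis from choline. It read 9.28, 9.25 and 9.44 under Deferasirox and 10.98, 9.75, 9.77 and 9.92 under DFO. The groups did not overlap, and DFO 1, in the high level, stood far above the other DFO arrays. The fitted difference was -0.48 (SE 0.04, adjusted p = 0.0059 in limma), the smallest p of all genes. Against DMSO, CHKA fell by 0.38 under Deferasirox (adjusted p = 0.0004) and changed by 0.10 under DFO (adjusted p = 0.21).

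Higher under Deferasirox was first SLFN5, a member of the Schlafen family, several of which are induced by interferon. It read 8.68, 8.71 and 8.57 under Deferasirox and 9.03, 7.99, 7.97 and 8.02 under DFO. The Deferasirox arrays lay above DFO 2, DFO 3 and DFO 4, and below DFO 1 of the high level. SLFN5 differed by 0.63 (SE 0.06, adjusted p = 0.0064 in limma), or 1.54-fold, with 0.71 within the middle level and 0.55 within the low level. It rose by 0.47 under Deferasirox against DMSO (adjusted p = 0.0016) and changed by -0.16 under DFO (adjusted p = 0.19).

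PER2, a core repressor of the circadian clock, read 8.79, 8.82 and 8.60 under Deferasirox and 8.73, 8.45, 8.29 and 8.21 under DFO. Its difference was 0.42 (SE 0.05, adjusted p = 0.010 in limma). PER2 rose by 0.48 under Deferasirox against DMSO (adjusted p = 0.00017), with 0.06 under DFO (adjusted p = 0.59). IVNS1ABP, whose protein binds the influenza protein NS1 and actin, read 9.49, 9.46 and 9.26 under Deferasirox and 9.94, 8.99, 8.93 and 8.80 under DFO, a difference of 0.48 (SE 0.06, adjusted p = 0.015). For both genes the Deferasirox arrays were above DFO 2 to DFO 4 of their own levels, and DFO 1 lay within their range for PER2 and above it for IVNS1ABP.

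PAX8-AS1 is an antisense RNA gene beside PAX8, a transcription factor gene. It read 10.13, 10.15 and 10.27 under Deferasirox and 10.50, 9.83, 9.82 and 9.88 under DFO, a difference of 0.35 (SE 0.04, adjusted p = 0.010 in limma). PAX8, chosen after its values were seen, differed by 0.19 (SE 0.06, adjusted p = 0.26). PCDHB5, a protocadherin of a cluster of near-identical genes, was dim: it read 5.15, 5.24 and 4.91 under Deferasirox and 5.80, 4.80, 4.71 and 4.51 under DFO. Its difference was 0.43 (SE 0.06, adjusted p = 0.035). PCDHB5 was called in 6 of the 24 alternative fits that tested it, and each other called gene in 12 to 15 of 25. The sister genes PCDHB4 (0.44, adjusted p = 0.25) and PCDHB12 (-0.41, adjusted p = 0.22), chosen after their values were seen, lay at the ends of 15 measured members of the cluster, of which 6 were above 0 and 9 below (median -0.02).

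**Figure D2:**
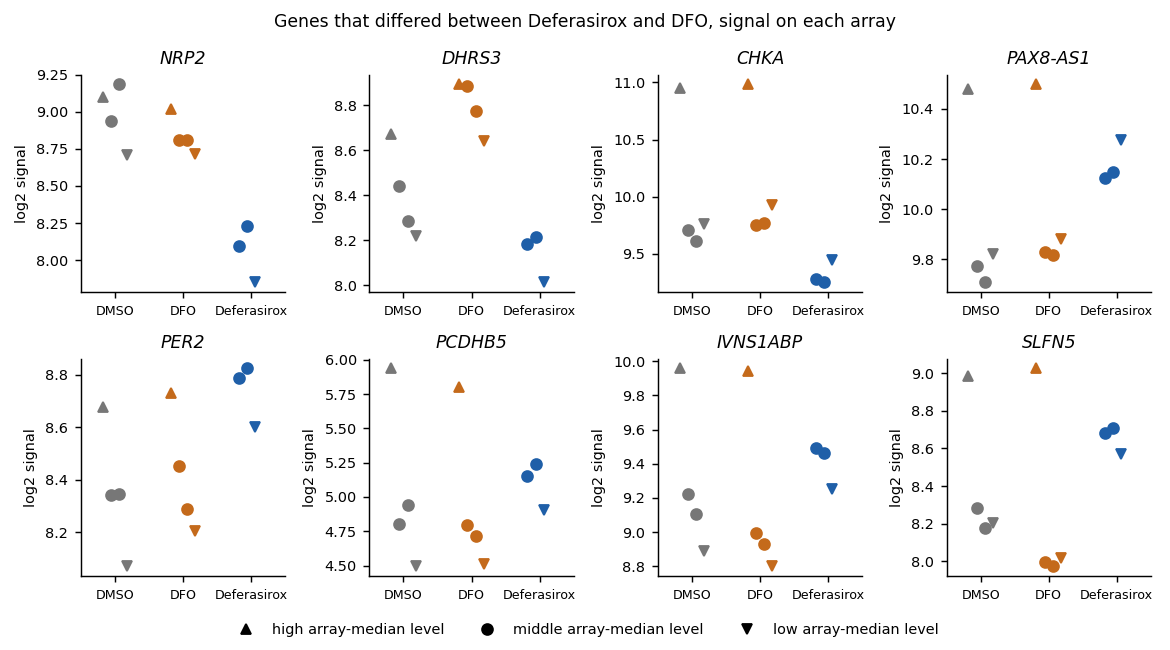
Log2 signal of the 8 called genes on each DMSO, DFO and Deferasirox array, 1 point per array, with the marker giving the level of the array median. Within the middle and low levels the Deferasirox and DFO points do not overlap for any of the 8 genes, while DFO 1 of the high level lies at or above the Deferasirox arrays for several of the genes that were higher.

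Within both shared levels the Deferasirox and DFO arrays of all 8 called genes were apart in the same direction, as they were for 4167 genes (22.6%) of the whole table; nothing is read from that count, since the calls rest on the same arrays. The 5 genes with the smallest p on the lower side include ZNF551, a zinc finger gene, at -0.36 (adjusted p = 0.061) and CLDN11, which encodes a tight-junction claudin, at -0.31 (adjusted p = 0.064), neither of them called; both were called with the trend (adjusted p = 0.019 and 0.0025), and CLDN11 also among brighter genes (adjusted p = 0.0098). At an adjusted p under 0.10 there were 39 genes, 24 higher and 15 lower. HOXA2, chosen after its values were seen, was among them, with -0.56 (adjusted p = 0.064; 0.0048 with the trend and 0.011 among brighter genes).

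The genes that both compounds moved most were not called between them. DDIT4, which restrains mTOR signalling, read 8.73, 8.74 and 8.90 under Deferasirox and 9.24, 8.84, 8.84 and 9.0 under DFO, against 6.51, 5.69, 5.82 and 5.59 in DMSO. Its difference between the treatments was -0.05, with a 95% interval of -0.31 to 0.21. It rose by 3.03 under Deferasirox and 3.08 under DFO, so the interval is narrow beside the response. The same held for the HIF targets EGLN3, a prolyl hydroxylase (-0.04, interval -0.27 to 0.20), ADM, encoding adrenomedullin (0.06, interval -0.20 to 0.32), and VEGFA, the angiogenic factor (0.08, interval -0.20 to 0.35). NDRG1, a growth-restraining gene used as a mark of iron loss, differed by 0.18 (interval -0.00 to 0.36). For these genes a difference beyond about 0.36 in either direction lies outside the interval; the data do not show that the responses are equal.

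Some shared responses leaned to Deferasirox, by an amount that depended on the arrays fitted. ARRDC3, an arrestin-domain gene, rose by 2.57 under Deferasirox and by 2.34 under DFO, a difference of 0.24 (interval 0.10 to 0.37, adjusted p = 0.21); it was called higher with the trend (adjusted p = 0.042) and not among brighter genes (adjusted p = 0.069). ANGPTL4, a regulator of lipid uptake, differed by 0.37 (interval 0.08 to 0.67, adjusted p = 0.36) and ERRFI1, which dampens EGF receptor signalling, by 0.25 (interval 0.01 to 0.49, adjusted p = 0.47). With only the 7 arrays of both compounds in the fit, ARRDC3 differed by 0.20, ANGPTL4 by 0.30 and ERRFI1 by 0.17. Among 44 measured HIF targets outside glycolysis 0 were called between the treatments, 6 were higher and 2 lower at an unadjusted p under 0.05 (5.48% and 4.56% of all genes), and the median difference was 0.02 beside 0.002 over all genes. With only the 7 arrays the median of this list was -0.001, and 21 of 44 lay above 0. Against DMSO 27 of them were called higher and 1 lower under Deferasirox, and 24 higher and 1 lower under DFO. Of all genes 2.83% were called higher and 3.0% lower under Deferasirox, and 1.89% and 2.72% under DFO. EDN1, encoding endothelin, at 0.39, and EFNA3, an ephrin gene, at -0.25 were the ends of that list and were chosen after their values were seen. PLIN2, likewise chosen after its values were seen, was the 1 member called with the trend (0.18, adjusted p = 0.049 in limma). Among brighter genes 0 members were called. Of 23 glycolysis genes, 11 were called higher against DMSO under Deferasirox (median change 0.18) and 9 under DFO (median change 0.14). Between the treatments their median difference was 0.04, and all 23 intervals lay within 0.5, beside 98.1% of all genes.

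**Figure D3:**
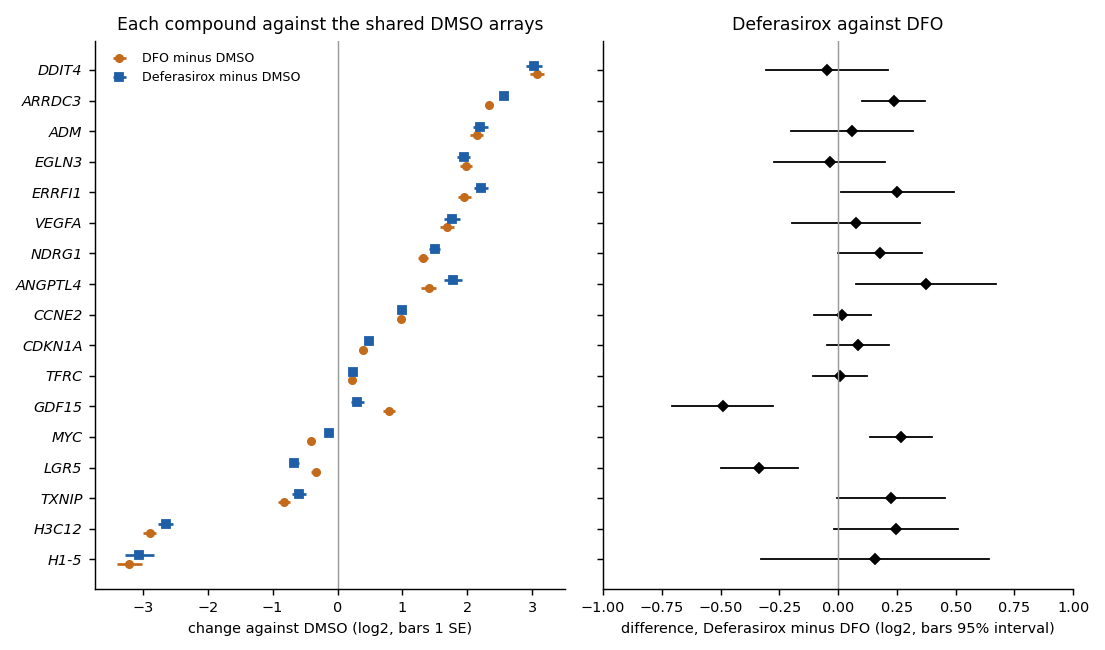
Left, change of 17 genes fixed by name and moved by at least 1 compound, against the shared DMSO arrays (log2, bars 1 SE), DFO as circles and Deferasirox as squares. Right, the difference of Deferasirox and DFO for the same genes (log2, bars 95% interval): DDIT4, EGLN3, VEGFA, ADM, CCNE2 and TFRC straddle 0, and GDF15 and LGR5 lie below it.

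Genes of iron handling were close between the treatments, as most genes were. TFRC, the transferrin receptor, read 11.61, 11.61 and 11.74 under Deferasirox and 12.59, 11.63, 11.63 and 11.70 under DFO. Its difference was 0.01 (interval -0.11 to 0.12); it rose by 0.23 under Deferasirox and by 0.22 under DFO. FTL, the ferritin light chain, differed by 0.04 (interval -0.13 to 0.21). Of 30 measured genes of iron uptake, storage, export and regulation 0 were called between the treatments, the median difference was 0.01, and all 30 intervals lay within 0.5. The same was true of all 25 genes of iron-sulphur cluster and heme synthesis, all 37 iron- and oxoglutarate-dependent dioxygenases and all 16 genes of ribonucleotide reductase and dNTP supply. Over all genes 0.0435% were called and 98.1% of intervals lay within 0.5, so these counts are near those of the whole table. Against DMSO, 3 of the 30 were called higher and 2 lower under Deferasirox, and 2 and 2 under DFO. Of the 25 it was 2 and 1, then 1 and 0. Of the 37 it was 6 and 0, then 6 and 2, and of the 16 it was 1 and 0, then 0 and 0. Of all genes 2.83% and 3.0% were called under Deferasirox, and 1.89% and 2.72% under DFO. For most of these genes closeness is thus not a shared response.

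Genes of other known responses to foreign compounds were also close, and few of them were called against DMSO under either compound. Closeness here is thus not a shared response. Of 16 targets of the aryl hydrocarbon receptor, which senses planar aromatic compounds, 0 were called and 0 passed an unadjusted p of 0.05 in either direction between the treatments. Against DMSO 1 of the 16 was called higher under each compound. Its classical target CYP1A1 differed by 0.04 (interval -0.13 to 0.21) and its target TIPARP by 0.04 (interval -0.04 to 0.13). CYP1A1 was dim, with a mean of 5.88 beside a median signal of 7.46 over all genes. Of 22 measured NRF2 targets 0 were called against DMSO under either compound. NQO1, a target of the oxidative stress factor NRF2, differed by -0.01 (interval -0.08 to 0.07), and HMOX1, heme oxygenase, by -0.11 (interval -0.24 to 0.02). MT2A, a metallothionein that responds to zinc, differed by 0.01 (interval -0.07 to 0.09). Its mean signal of 13.99 lay near the top of the scale, where the highest value was 14.9. MT1X, another metallothionein, with a mean of 11.4, differed by 0.07 (interval -0.09 to 0.22). Against DMSO MT1X rose by 0.29 under Deferasirox (adjusted p = 0.037 in limma), with 0.22 under DFO (adjusted p = 0.082). Of 19 measured genes of metallothioneins and the zinc response, 1 was called against DMSO under Deferasirox and 0 under DFO. Among 26 genes of drug conjugation and export 0 were called, and 24 of 26 intervals lay within 0.5, beside 98.1% of all genes.

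Chaperone and degradation genes of the endoplasmic reticulum leaned to Deferasirox. When proteins misfold in this compartment, the sensors IRE1, ATF6 and PERK start the unfolded protein response, and ATF6 and XBP1 act on short promoter elements of its target genes. The promoters of HSPA5, the chaperone BiP, and of HERPUD1, a part of the machinery that removes misfolded proteins, are shown because these genes had the smallest p of the list. They are the 250 bases before the start (RefSeq, GRCh38.p14), 5′ to 3′ on the strand of the gene, at chr9:125241344-125241593 on the minus strand and chr16:56931892-56932141 on the plus strand. Capitals mark a match to the endoplasmic reticulum stress element in HSPA5, which is CCAAT and CCACG with any 9 bases between them, and to the element II in HERPUD1, which is ATTGG and CCACG with any 1 base between them.
HSPA5: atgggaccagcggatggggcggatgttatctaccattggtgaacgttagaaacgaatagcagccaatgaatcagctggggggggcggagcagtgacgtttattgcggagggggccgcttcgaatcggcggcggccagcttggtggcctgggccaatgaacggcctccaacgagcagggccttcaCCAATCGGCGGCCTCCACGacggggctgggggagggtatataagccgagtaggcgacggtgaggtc
HERPUD1: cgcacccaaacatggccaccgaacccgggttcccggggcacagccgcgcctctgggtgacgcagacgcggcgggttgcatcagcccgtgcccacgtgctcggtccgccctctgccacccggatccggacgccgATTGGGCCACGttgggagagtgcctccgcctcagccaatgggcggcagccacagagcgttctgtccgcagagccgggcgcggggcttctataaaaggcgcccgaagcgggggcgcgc
The match lay 66 to 48 bases before the start of HSPA5 and 117 to 107 bases before that of HERPUD1. Both motifs were searched on both strands. The first was found in 0.119% of 14230 promoters of this length and in 6 of the 25 list promoters at hand, and the second in 0.0843% and in 3 of 25. The 9 genes with either match differed by 0.01 to 0.43 (median 0.10) between the treatments and the other 18 measured genes of the list by -0.01 to 0.34 (median 0.10).

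HSPA5 read 12.82, 12.86 and 12.58 under Deferasirox and 12.90, 12.59, 12.62 and 12.32 under DFO. Within the middle and the low level the Deferasirox arrays were the higher ones, by 0.24 and 0.26. The difference was 0.24 (SE 0.04, adjusted p = 0.056 in limma), just outside the threshold; against DMSO HSPA5 rose by 0.28 under Deferasirox (adjusted p = 0.00094), with 0.03 under DFO (adjusted p = 0.70). HERPUD1 read 11.03, 11.03 and 10.59 under Deferasirox and 10.86, 10.55, 10.69 and 10.17 under DFO, a difference of 0.43 (SE 0.06, adjusted p = 0.056). HERPUD1 rose under both compounds against DMSO, by 0.75 and 0.32.

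Of the 27 measured genes of the unfolded protein response 0 were called between the treatments. At an unadjusted p under 0.05, 13 were higher and 0 lower (5.48% and 4.56% of all genes), 26 of 27 lay above 0 beside 51.2% of all genes, and the median was 0.10. In both the middle and the low level 23 of 27 were above 0. Against DMSO 6 were called higher and 0 lower under Deferasirox, and 2 higher and 1 lower under DFO. Of all genes 2.83% were called higher and 3.0% lower under Deferasirox, and 1.89% and 2.72% under DFO. SEL1L (0.34, adjusted p = 0.095) and SYVN1 (0.21, adjusted p = 0.23), which form the ligase complex that clears misfolded proteins, the transcription factor gene XBP1 (0.20, adjusted p = 0.27) and CREB3L2 (0.18, adjusted p = 0.15), a relative of ATF6, followed; these were chosen after their values were seen. Without a block the whole table shifted by -0.16 and 24 of 27 genes lay above the median of all genes. With the trend HSPA5 (adjusted p = 4.0e-05), HERPUD1 (adjusted p = 7.9e-04), SEL1L (adjusted p = 0.012) and CREB3L2 (adjusted p = 0.041) were called and higher. Among brighter genes 4 of the 27 were called.

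**Figure D4:**
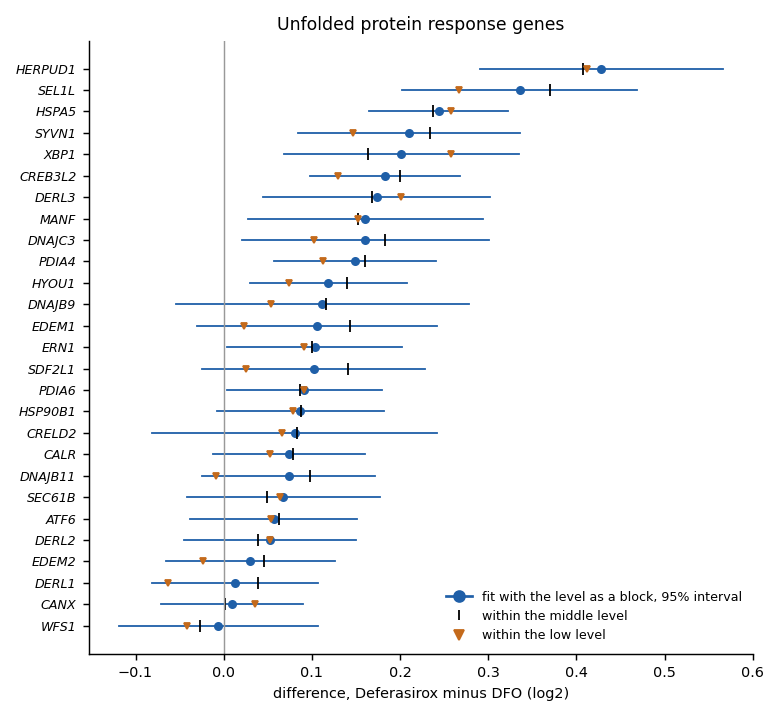
Difference of Deferasirox and DFO (log2) for the 27 measured genes of the unfolded protein response, sorted by size: points and lines are the fit with its 95% interval, ticks the difference within the middle level and triangles that within the low level. All but WFS1 lie above 0, and HERPUD1, SEL1L and HSPA5 lie highest.

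Genes of the amino acid response that ATF4 drives were spread around 0. DDIT3, the proapoptotic factor CHOP, differed by 0.27 (adjusted p = 0.28), and ATF3 (-0.05), TRIB3 (0.06) and ASNS, asparagine synthetase (0.10), had intervals that span 0. Of 36 measured genes 0 were called, and the median difference was 0.01. GDF15, a secreted stress cytokine, lay lowest: it read 7.95, 8.27 and 7.90 under Deferasirox and 9.03, 8.56, 8.67 and 8.44 under DFO. All Deferasirox arrays were below all DFO arrays, and the groups were likewise apart, in either direction, for 506 of 18404 genes. The difference was -0.49 (SE 0.10, adjusted p = 0.13), and GDF15 was called lower with the trend (adjusted p = 0.019) and among brighter genes (adjusted p = 0.031). GDF15 rose by 0.79 under DFO against DMSO (adjusted p = 0.00031), with 0.30 under Deferasirox (adjusted p = 0.11).

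The mRNAs of the replication-dependent histones fell under both compounds. Against DMSO 43 of 46 were called lower under Deferasirox (median change -1.34) and 44 of 46 under DFO (median change -1.56). Of all genes 3.0% were called lower under Deferasirox and 2.72% under DFO. Between the treatments 0 of 46 were called, 15 were higher and 0 lower at an unadjusted p under 0.05 (5.48% and 4.56% of all genes), 42 lay above 0, and the median was 0.19. The lean was in the middle level, with a median of 0.31 and 42 of 46 above 0; in the low level it was 0.01, with 26 of 46 above 0. Without Deferasirox 2 the median was 0.09 and without Deferasirox 3 it was 0.28; without a block 35 of 46 lay above the median of all genes. H1-5, a linker histone, differed by 0.46 in the middle and -0.33 in the low level (0.16 in the fit, interval -0.33 to 0.64). H2AC20 read 8.94, 9.15 and 8.75 under Deferasirox and 9.89, 8.49, 8.52 and 8.47 under DFO, a difference of 0.42 (SE 0.08, adjusted p = 0.14), and was chosen after its values were seen. H2AC20 and H2AC6 were the 2 histone genes called, both higher, with the trend (adjusted p = 0.019 and 0.034) and among brighter genes (adjusted p = 0.032 and 0.048). In such bulk RNA fewer cells of a kind, here cells in DNA synthesis, and less RNA per cell cannot be told apart.

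Cell cycle genes outside the histones were close. CCNE2, a cyclin of the entry into DNA synthesis, rose by 1.00 under Deferasirox and by 0.98 under DFO and differed by 0.02 (interval -0.10 to 0.14). CDKN1A, the inhibitor p21, differed by 0.08 (interval -0.05 to 0.22). Of 30 genes of the G1/S transition and DNA replication 0 were called and the median was -0.03. Of 29 genes of G2/M and mitosis 0 were called, and 25 lay above 0 (median 0.08) with the level as a block. At an unadjusted p under 0.05 in limma, 7 were higher and 0 lower (5.48% and 4.56% of all genes). UBE2C was the 1 member called with the trend (0.31, adjusted p = 0.019), and it was also called higher among brighter genes. But 13 of 29 lay above the median of all genes without a block, and 6 of 29 with the replicate number in place of the level. The direction of this list thus depended on the block.

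Immediate early genes, which growth signals switch on within minutes, held 1 gene near the threshold. JUN, a part of the AP-1 transcription factor, read 9.29, 9.40 and 9.57 under Deferasirox and 9.82, 9.08, 9.06 and 9.16 under DFO. Apart from DFO 1, all DFO arrays were lower. The difference was 0.33 (SE 0.05, adjusted p = 0.056 in limma; 0.0040 with the trend and 0.0072 among brighter genes). JUN rose by 0.75 under Deferasirox and by 0.42 under DFO against DMSO. Its partner FOS differed by -0.10 (interval -0.24 to 0.05) and EGR1 by 0.15 (adjusted p = 0.46). Of 40 measured genes of this list 0 were called, and the median was 0.01. With the trend 2 members, JUN and MYC, were called and higher, and among brighter genes 3 were called and higher. At an unadjusted p under 0.05 in limma, 8 were higher and 3 lower (5.48% and 4.56% of all genes).

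MYC, a growth regulator and Wnt target, read 10.62, 10.73 and 10.79 under Deferasirox and 11.58, 10.42, 10.40 and 10.42 under DFO, a difference of 0.27 (interval 0.14 to 0.40, adjusted p = 0.16). MYC was called higher with the trend (adjusted p = 0.019) and among brighter genes (adjusted p = 0.040). It fell by 0.41 under DFO against DMSO (adjusted p = 0.001), with -0.14 under Deferasirox (adjusted p = 0.24). LGR5, an intestinal stem cell receptor and also a Wnt target, went the other way, with -0.34 (interval -0.50 to -0.17, adjusted p = 0.17), and AXIN2, a feedback inhibitor of the pathway, differed by -0.03 (interval -0.17 to 0.11). Of 28 Wnt targets 0 were called, and 21 lay below 0 (median -0.04) beside 48.8% of all genes. At an unadjusted p under 0.05 in limma, 2 were higher and 6 lower (5.48% and 4.56% of all genes). With the trend MYC and DKK1, an inhibitor of the pathway (0.35, adjusted p = 0.046), were called higher and ASCL2, a stem cell transcription factor (-0.25, adjusted p = 0.038), lower.

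In the circadian clock list PER2 was the 1 member called of 19 measured. PER1 (0.25, adjusted p = 0.26), PER3 (0.23, adjusted p = 0.22), CRY1 (0.22, adjusted p = 0.25) and CRY2 (0.19, adjusted p = 0.21), also repressors of the clock, were above 0 and not called. The activator BMAL1 was at -0.19 (adjusted p = 0.37). These 5 were chosen after their values were seen. Together with PER2 they are all the members with an unadjusted p under 0.05 in limma, 5 higher and 1 lower (5.48% and 4.56% of all genes). Of the 19 members 12 lay above 0 and 7 below, beside 51.2% of all genes above 0. BHLHE40, a further repressor and HIF target, rose by 1.67 under Deferasirox and 1.59 under DFO and differed by 0.07 (interval -0.06 to 0.20). The list median was 0.07 with the level as a block, and 9 of 19 lay above the median of all genes with replicate number and level both as blocks. In all, 805 measured genes stood in 35 lists, and PER2 was the 1 gene of them called between the treatments, beside 16 with the trend. Of all 18404 genes 8 (0.0435%) were called, and 116 (0.630%) with the trend. The lists were chosen with earlier results of these data known. The median lay within 0.05 of 0 in 26 of the 31 lists that are not cell type markers.

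**Figure D5:**
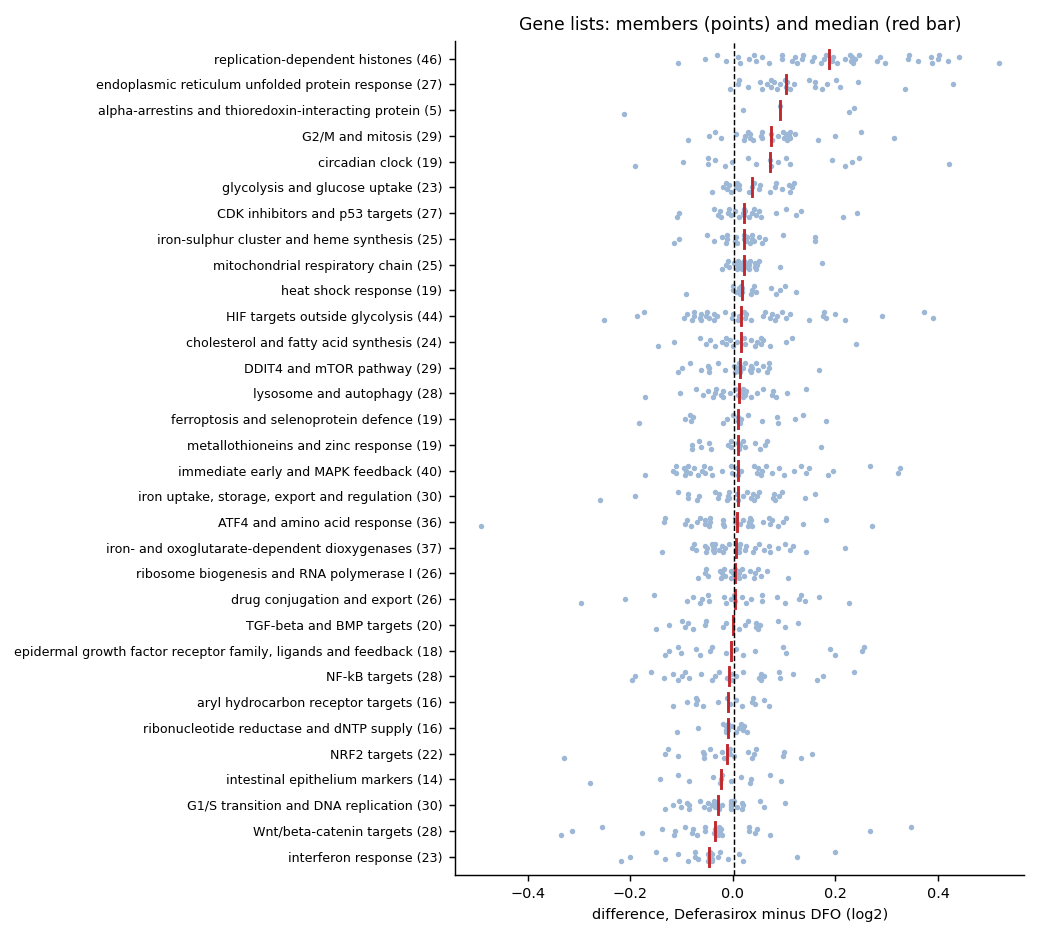
Difference of Deferasirox and DFO (log2) for the members of 32 gene lists, 1 point per gene, with the list median as a red bar, the number of measured members in brackets and the median of all genes as a dashed line. The histone list (median 0.19) and the unfolded protein response (0.10) lie furthest to the right, and most list medians lie at the dashed line.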

How the data were processed

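RNA from 13 samples was measured on 13 arrays. The authors deposited a table with a log2 value for each transcript cluster in each sample, ranging from 1.24 to 14.9; per the submitters' processing notes GCRMA and limma were used by the authors, with no version, order or role given. There are no detection calls, and precision is limited by how many arrays there are. Of 32321 transcript clusters, 19158 had 1 gene symbol in the platform's probe table, 1388 several and 11775 none. The cluster with the highest mean was kept for each of 637 genes with several, which left 18404 genes; there was no filter on dim genes.

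Differences were fitted with limma 3.58.1 in R 4.3.3 over all 13 arrays, with 1 mean per group and the array-median level as a block (7 residual degrees of freedom), empirical Bayes moderation and Benjamini-Hochberg adjustment over all 18404 genes, two-sided, called under 0.05. The code was tested on simulated data. Folds and intervals come from this fit. Both contrasts with DMSO share its arrays. Named were the called genes, up to 12 in each direction, whose sign was the same in both shared levels; the 5 smallest p where fewer than 5 were called; genes fixed by name; and up to 4 called members of each list. Others are said to be chosen after their values were seen. The members and lists were chosen with earlier results of these data known. Lists were described, not tested. Alternatives changed the block, normalization, arrays, filter, rows and variance prior.

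For replicate numbers as pairs, deviations of same-numbered Deferasirox and DFO arrays were correlated, in the deposited values and after removing the level. The labels give no pairing. Promoters came from RefSeq (GRCh38.p14); 25 of 27 symbols matched.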

Additional observations from a re-analysis of the deposited data

Results flagged for a closer look

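Among the genes named, the highest or lowest of 4 DFO or 4 DMSO arrays was set against the range of its group; an array was listed where its gap to the nearest other array as a share of that range passed the 95% critical value of Dixon. The 3 Deferasirox and 2 OICR623 arrays are too few for this. Chance lists about 1 in 20 groups. Of 82 genes in each group, DFO 1 stood apart for 26 and DMSO 1 for 19; both are the only array of their group in the high level, and an array cannot be told apart from its level here.

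The log2 signals on DFO 1 that stood above the other DFO arrays were SLFN5 9.03, IVNS1ABP 9.94, PAX8-AS1 10.50, CHKA 10.98, VEGFA 9.58, NDRG1 12.11, TFRC 12.59, TIPARP 11.09, NQO1 12.28, DDIT3 8.53, ASNS 8.60, JUN 9.82, MYC 11.58, LGR5 7.72, SLC30A1 9.17, CCNE2 11.71, SEL1L 10.01, H2AC20 9.89, H2AC6 8.87, PER3 8.44, CRY1 9.11, BMAL1 10.20, BHLHE40 11.48, SLC44A2 10.16, GPCPD1 8.07 and ITGB4 11.48. In DFO 4 the signal that stood above the others was ANGPTL4 7.96.

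The log2 signals on DMSO 1 that stood above the other DMSO arrays were SLFN5 8.99, PAX8-AS1 10.48, CHKA 10.95, ARRDC3 9.64, EGLN3 9.88, TIPARP 11.12, NQO1 12.29, JUN 9.43, MYC 11.80, CCNE2 10.64, SEL1L 10.01, H2AC20 11.91, H2AC6 10.57, CRY1 9.19, BHLHE40 10.07, PCDHB4 3.82, PCDHB12 5.13, GPCPD1 8.45 and ITGB4 11.41. DMSO 4 stood apart for CYP1A1 5.68 and DNAJB9 6.56.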

How the results depend on the processing

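All 8 called genes kept their sign in every alternative in which they were tested but 1 (PCDHB5 is not among the brighter genes): PCDHB5 was at -0.024 with the replicate number as a block in place of the level. The count of 8 calls (5 higher, 3 lower) was 0 without a block, with the replicate block in place of the level, with replicate block and level together, with the array median as a covariate, with arrays centred on their median, with only the 7 arrays of both compounds, and with only the middle level; at an unadjusted p under 0.05 these limma fits gave 44, 2823, 1940, 670, 374, 1681 and 1264 genes. It was 107 (69 higher, 38 lower) among the 9202 genes above the median signal and 116 (78 higher, 38 lower) with an intensity trend and robust prior; 85 genes were shared, 73.3% of the latter and 79.4% of the former, and the latter held all 8. Leaving out 1 array at a time gave 0 to 10 calls, 0 to 6 of them higher and 0 to 6 lower. The alternatives that follow were chosen after seeing the data. With the trend, leaving out 1 array gave 20 to 167 calls (13 to 116 higher, 7 to 51 lower), with the adjusted p of HSPA5 at most 0.0018 and of HERPUD1 at most 0.0142. With the trend, the 7 arrays alone gave 83 (58 higher, 25 lower) and the fit without a block gave 0. The deviations of Deferasirox and DFO arrays of the same number correlated by -0.031, 0.271 and -0.299 in the deposited values. There the arrays numbered 1, and those numbered 3, lie in different levels. After removing the level the correlations were 0.057, -0.107 and 0.308. These values do not decide whether the arrays were paired. The labels give no pairing, and the main fit took the numbers as no pairs. The median of all genes was at -0.16 without a block and -0.24 with the replicate block, so list counts without the level are set against it. Why the counts moved was not tested. The arrays were few, and 345 genes had intervals that reached beyond 0.5 on the log2 scale.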

Other observations

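The lists below were chosen after the values of their members were seen, so they are descriptions with no test. Of 18 measured genes of choline and ethanolamine phospholipid synthesis, CHKA lay lowest, and next to it was ETNK1, an ethanolamine kinase, which read 8.06, 8.0 and 7.69 under Deferasirox and 9.21, 8.56, 8.36 and 8.19 under DFO. ETNK1 differed by -0.45 (SE 0.08, adjusted p = 0.091 in limma). FLVCR1, a transporter of choline and heme, differed by -0.28 (adjusted p = 0.13). SLC44A2, a choline transporter, differed by 0.48 (adjusted p = 0.15), and GPCPD1, which splits glycerophosphocholine, by 0.46 (adjusted p = 0.13). The list held 8 genes above 0 and 10 below, with a median of -0.01.

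Of 17 genes of retinoid metabolism and its receptors 13 lay below 0, among them DHRS3 and the receptors RARB (-0.27, adjusted p = 0.12) and RARG (-0.21, adjusted p = 0.081). RARB was dim, with a mean of 4.88, and neither RARB (adjusted p = 0.14) nor RARG (0.072) was called with the trend in limma. The receptor RXRA lay on the other side of 0 (0.10, adjusted p = 0.48). All 6 measured genes of the hemidesmosome, which anchors epithelial cells to their basement membrane, lay above 0: LAMB3, a laminin chain, at 0.34 (adjusted p = 0.13), ITGB4 at 0.29 (adjusted p = 0.12) and ITGA6 at 0.20 (adjusted p = 0.22) were the highest. Over all genes 51.2% lay above 0. Of the genes named in this section CHKA and DHRS3 were called by the test used in the report. With an intensity trend and a robust prior, and the same block, limma also called ETNK1 (adjusted p = 0.011) and FLVCR1 (0.019) lower, and SLC44A2 (0.030), GPCPD1 (0.027), LAMB3 (0.034), ITGB4 (0.0085) and ITGA6 (0.034) higher. Among only the genes above the median signal, ETNK1, FLVCR1, SLC44A2, LAMB3, ITGB4 and RARG were called, and GPCPD1 and RARB were not tested there.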
